A study of Mus musculus with 6 samples.

Results

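The proteasome is the protease complex that degrades ubiquitin-tagged proteins, and its subunit genes were compared between hippocampi of wild-type and TonEBP+/- mice. Members were taken by symbol from the deposited tables: every gene named Psma, Psmb, Psmc, Psmd, Psme, Psmf or Psmg followed by a number, except the interferon-inducible Psmb8 and Psmb9. This gave 46 of the 24346 genes listed. They comprised 8 alpha and 9 beta genes of the core particle, 9 genes of the base and 8 of the lid of the regulatory particle, 7 genes of assembly chaperones, and 5 genes of activators and an inhibitor.

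Hippocampal total RNA came from 12-month-old C57BL/6 mice, 3 of them wild type (WT 1 to WT 3) and 3 heterozygous for a disrupted allele of the TonEBP gene (HET 1 to HET 3). The wild-type mice were TonEBP+/+, and both genotypes descended from crosses of TonEBP+/- mice back-crossed on C57BL/6J. TonEBP, encoded by Nfat5, belongs to the NFAT-related transcription factors and activates osmoprotective genes. Neither the disrupted part of the gene nor the housing or sampling of the mice is described in the labels. The p-values rest on the spread between these 6 samples, pooled in part across genes.

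In the complex, rings of alpha and beta subunits form a barrel with the peptide-cleaving sites of 3 beta subunits on its inside. The base, a ring of ATPases with large scaffold subunits, unfolds substrates and feeds them into the barrel, and the lid removes their ubiquitin chains. Subunits of the complex are known to be transcribed together, in part through the factor Nfe2l1, which binds antioxidant response elements. Neurons depend on the proteasome for turnover of synaptic proteins.

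The values below are levels in FPKM (fragments per kilobase per unit of library depth), which is how 2 to the power of the deposited value, minus 1, behaved. No label names the unit. From the step between low values, a single fragment on 1 kb of transcript was estimated to give 0.0786 to 0.128 FPKM, depending on the depth of the library, and fragment numbers below are estimates from this step. Nfat5 gave 10.5, 8.39 and 9.72 FPKM in wild type libraries, against 8.25, 9.31 and 8.42 FPKM in the libraries labelled TonEBP+/- (log2 difference -0.12, 95% interval -0.34 to 0.094). The genotypes overlapped, so that the whole-gene value did not check the labels. All 10 hippocampal neuron markers, such as the dentate gene Prox1 and the CA field gene Wfs1, were detected, with summed levels of 404 to 446 FPKM in wild type and 321 to 410 FPKM in TonEBP+/-. Without Pcp4, the most abundant of them and singled out after its values were seen, the other 9 summed to 212 to 233 FPKM and 212 to 248 FPKM. Summed choroid plexus markers (8 genes) ranged from 284 to 2900 FPKM in wild type and from 98.6 to 3468 FPKM in TonEBP+/-, and thalamus markers (10 genes) from 214 to 232 and from 126 to 237 FPKM. The thalamus sums were low in HET 2 (133 FPKM) and HET 3 (126 FPKM) and not in HET 1 (237 FPKM). In bulk tissue, fewer cells of a type and less RNA per cell cannot be told apart.

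None of the proteasome subunit genes passed the limma test between genotypes. Of the 46 genes, 44 reached 1 FPKM in at least 3 libraries and were tested, and 0 of them had an adjusted p under 0.05 (limma, adjusted by the Benjamini-Hochberg method over the 13122 genes tested, of which 0, or 0%, passed). Each of the 44 had an adjusted p of 1.00. The smallest unadjusted p in limma was 0.25, and 0 of 44 lay under 0.05, against 3.69% of all genes tested. The log2 differences (TonEBP+/- minus wild type) ran from -0.12 for Psmg3 to 0.10 for Psma4. Their median was -0.014, where that of all genes tested was about 0, with 19 members higher and 25 lower. Among all genes tested, 50% were higher.

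The intervals show how large a difference these libraries leave room for. In 39 of the 44 genes the 95% interval of the fold change lay within 1.25-fold in either direction (log2 difference within 0.32), which held for 58.2% of all genes tested. The median of the mean levels was 53.8 FPKM for the members and 9.91 FPKM for all genes tested. The shares compared in this paragraph are not matched for level. The 5 genes whose intervals reached beyond these bounds were Psmd10, Psmg2, Psmg3 and Psmg4, all assembly chaperones, and Psme1, an activator subunit. The widest lower bound was -0.48 for Psme1 and the highest upper bound 0.43 for Psmg4. A log2 difference of 0.1 or more was estimated for Psma4, Psme1 and Psmg3 alone, while 67.2% of all genes tested lay within 0.1 of 0, as did 41 of the 44 members. The genotypes did not overlap in 1 of 44 members, Psmd11, against 8.52% of all genes tested in either direction and 4.13% in the direction of Psmd11, higher in TonEBP+/-. In 0 of 44 members did all TonEBP+/- libraries lie below all wild-type libraries, against 4.39% of all genes tested.

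**Figure D1:**
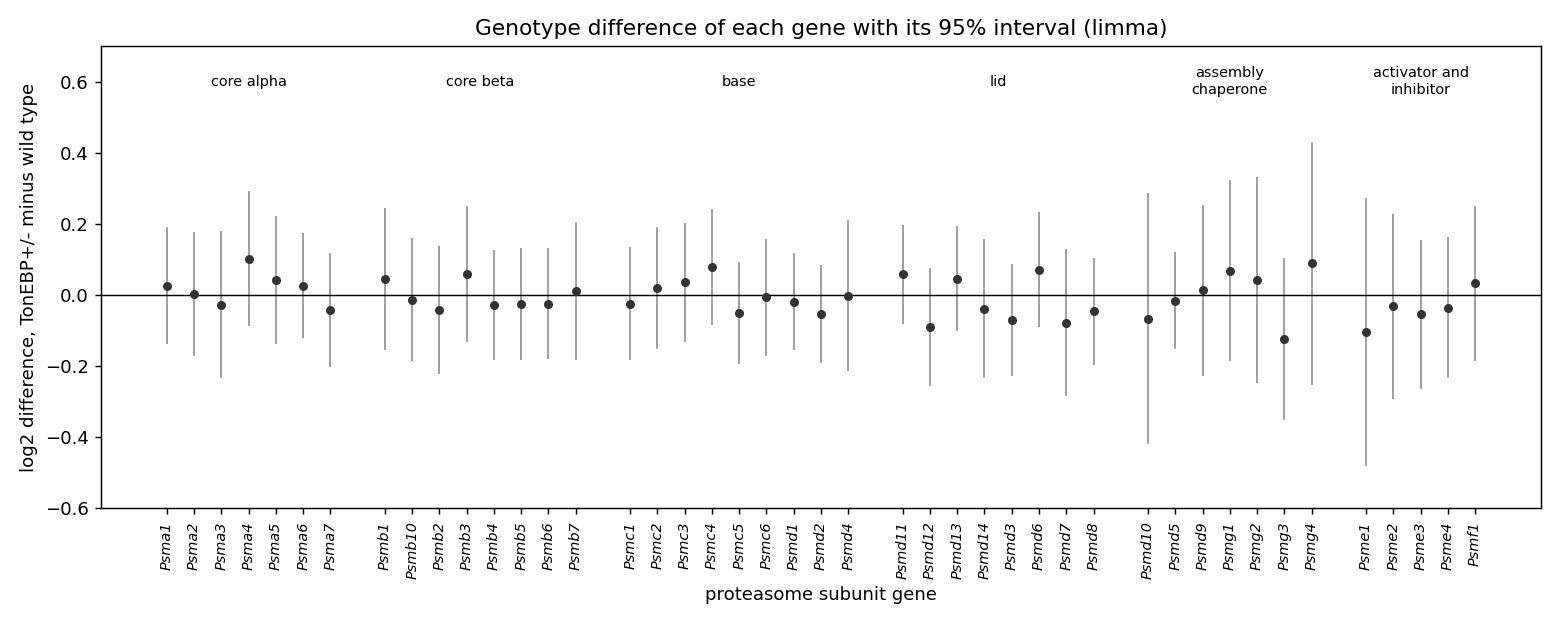
Log2 difference between genotypes (TonEBP+/- minus wild type, vertical axis) of the 44 tested proteasome subunit genes, ordered by structural group. Points are limma estimates from 3 libraries per genotype and bars their 95% intervals. Every interval includes 0, and the widest belong to assembly chaperones and to Psme1.

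The 44 genes spanned a 35.3-fold range of mean level, from 5.66 FPKM for Psmf1 to 199.5 FPKM for Psmb7, and this order was nearly the same in both genotypes. Ranked by mean level, 24 genes held the same rank in wild type and TonEBP+/-, and 40 of 44 shifted by at most 1 place. The largest shift was 2 places. By group, the median of the mean levels was 125.8 FPKM for beta, 95.4 FPKM for alpha, 75.1 FPKM for base, 43.1 FPKM for lid, 17.98 FPKM for activator and inhibitor and 13.4 FPKM for chaperone genes. These levels are per length of transcript, and the subunits of the core are present in the complex in equal number.

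**Figure D2:**
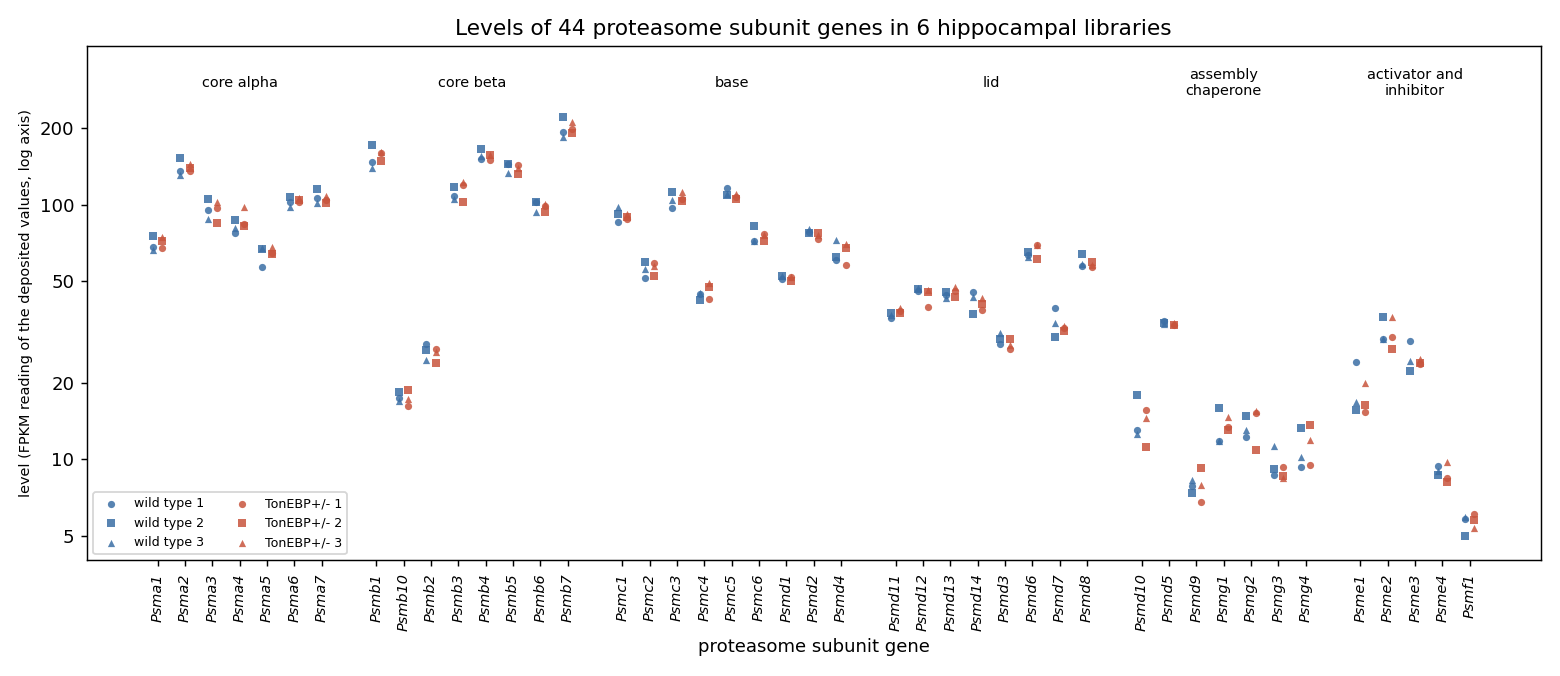
Level (FPKM reading of the deposited values, log axis) of each tested proteasome subunit gene in the 3 wild-type libraries (blue) and the 3 TonEBP+/- libraries (red), with the marker shape giving the replicate number. Beta genes other than Psmb2 and Psmb10 lie near or above 100 FPKM, chaperone genes other than Psmd5 under 20 FPKM, and the colours overlap in every gene but Psmd11.

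Alpha subunits build the outer rings of the core, whose gate admits substrates. Of the 7 tested alpha genes, 5 were higher and 2 lower, with a median log2 difference of 0.026 and 0 past the threshold. Psma4, which had the smallest p of the group, read 77.0, 87.0 and 81.1 FPKM in WT 1 to WT 3, compared with 83.7, 82.4 and 97.8 FPKM in HET 1 to HET 3. HET 3 alone lay above the wild-type range, and the log2 difference was 0.10 (SE 0.0845, 95% interval -0.086 to 0.29). Psma7, the next by p, measured 106, 116 and 102 FPKM across wild type, against 104, 102 and 108 FPKM in TonEBP+/-. Its log2 difference was -0.042 (95% interval -0.20 to 0.12), with WT 2 the highest library. Psma2, the most abundant alpha transcript, had 139.6 ± 11.3 FPKM in wild type and 139.6 ± 4.57 FPKM in TonEBP+/- (SD, n = 3 each). Psma5 was the least abundant, with 63.9 ± 6.12 FPKM against 65.6 ± 2.10 FPKM (SD, n = 3 each), and WT 1 was its lowest library at 56.8 FPKM. The remaining tested alpha genes, Psma1, Psma3 and Psma6, had log2 differences of 0.026, -0.027 and 0.026. Psma8, an alpha gene known from the testis, did not pass the filter, with 0.445, 0.482 and 0.124 FPKM in wild type and 0.525, 0.410 and 0.472 FPKM in TonEBP+/-. The median over libraries was about 7 estimated fragments, and WT 3 had about 2.

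Among the catalytic beta genes, the highest library exceeded the lowest 1.09-fold for Psmb5, 1.10-fold for Psmb6 and 1.20-fold for Psmb7. Psmb5 encodes the subunit with chymotrypsin-like activity, Psmb6 that with caspase-like activity and Psmb7 that with trypsin-like activity. Psmb5 gave 144, 144 and 133 FPKM in WT 1 to WT 3 against 143, 132 and 139 FPKM in HET 1 to HET 3. The log2 difference of -0.025 had a 95% interval of -0.18 to 0.13. Psmb6 read 102, 102 and 93.3 FPKM in wild type, compared with 98.5, 93.2 and 101 FPKM in TonEBP+/-, with a log2 difference of -0.025 (95% interval -0.18 to 0.13). In both genes WT 3 and HET 2 were the lowest libraries, 1 of each genotype. Psmb7, the most abundant proteasome transcript, measured 193, 220.2 and 184 FPKM across wild type, against 198, 190.4 and 211 FPKM in TonEBP+/-. The TonEBP+/- values all fell inside the wild-type range, and the log2 difference was 0.011 (95% interval -0.18 to 0.21).

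Psmb10 encodes the interferon-inducible counterpart that replaces the Psmb7 subunit in immunoproteasomes. Its level was low and even, with 17.4, 18.3 and 16.9 FPKM across wild type, against 16.2, 18.7 and 17.3 FPKM in TonEBP+/- (log2 difference -0.013, 95% interval -0.19 to 0.16). The ratio of Psmb10 to Psmb7 was 0.0884 ± 0.00453 in wild type and 0.0872 ± 0.00952 in TonEBP+/- (SD, n = 3 each), with overlapping ranges. The other inducible genes lay lower still. Psmb8 gave 3.32, 3.21 and 2.79 FPKM in wild type libraries, against 4.27, 3.31 and 2.76 FPKM in TonEBP+/-, and Psmb9 at 1.90, 2.54 and 1.67 against 2.22, 0.681 and 1.87 FPKM, with overlapping genotypes in both.

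Across the 8 tested beta genes, 3 were higher and 5 lower, with a median log2 difference of -0.019 and 0 past the threshold. Psmb3 had the smallest p, with 108, 117 and 105 FPKM in wild type and 119, 102 and 123 FPKM in TonEBP+/- (log2 difference 0.059, SE 0.0851, 95% interval -0.13 to 0.25). HET 2 lay below and HET 1 and HET 3 above the wild-type range. Psmb2 stood apart from the other constitutive beta genes by its level, with 28.4, 26.8 and 24.6 FPKM in wild type and 27.2, 23.8 and 26.4 FPKM in TonEBP+/- (log2 difference -0.043, SE 0.0805). Psmb7 exceeded it 7.49 ± 0.701-fold in wild type and 7.77 ± 0.395-fold in TonEBP+/- (SD, n = 3 each), although the products of both genes sit in the same ring. Psmb1 and Psmb4, noncatalytic beta genes, had log2 differences of 0.045 and -0.029. The thymus gene Psmb11 was not tested, with 0.125 FPKM or less in every library and a value near 0 in WT 3.

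Promoter sequences bear on the comparison because the disrupted factor binds tonicity elements and because the usual regulator of proteasome genes binds antioxidant response elements. The RefSeq table (GRCm38.p6) held a window of 250 bases before to 50 after the start for 38 of the 46 genes. Psma8, Psmb1, Psmb2, Psmb7, Psmc3, Psmd3, Psmd7 and Psmg2 had no entry. On either strand, the antioxidant response core TGACNNNGC was found in 6 of the 38 genes (15.8%, against 14% of all 27025 genes in the table): Psmb5, Psmb6, Psmc6, Psmd9, Psmd12 and Psme4. The core of the tonicity element, TGGAAA, was found in 7 (18.4%, against 23.9%), and the full tonicity element, which contains that core, in Psmd6 and Psmf1 (5.26%, against 5.74%). The CCAAT box was found in 13 (34.2%, against 41.1%). The shares in proteasome promoters were thus near or below those of all genes, and a match is a run of letters, not a measured site. The windows below are shown for the catalytic gene Psmb5, for Psmd12, the lid gene with the smallest p, and for the 2 genes with a full tonicity element. They run 5′ to 3′ on the strand of the gene and hold only bases before the start used in the promoter table. For 7 of the 38 genes that start lies inside the gene span of the RefSeq gene table. The distance is largest for Psma3, at 5340 bases. It is 2889 bases for Psmf1, which has longer transcripts, 530 bases for Psmd2 and 33 bases for Psmb6. Capitals mark the antioxidant response core in the first 2 and the tonicity element, matched on the opposite strand, in the other 2. In Psmd12 the core is also on the opposite strand.
Psmb5, chr14:54618023-54618145, minus strand: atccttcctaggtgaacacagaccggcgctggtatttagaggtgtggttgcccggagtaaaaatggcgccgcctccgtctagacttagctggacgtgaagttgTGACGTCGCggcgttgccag
Psmd12, chr11:107479278-107479377, plus strand: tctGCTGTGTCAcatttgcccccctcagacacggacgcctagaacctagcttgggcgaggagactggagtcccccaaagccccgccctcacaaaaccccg
Psmd6, chr14:14121096-14121195, minus strand: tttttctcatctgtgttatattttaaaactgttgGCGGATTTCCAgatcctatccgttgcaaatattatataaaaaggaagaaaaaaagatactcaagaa
Psmf1, chr2:151741311-151741460, minus strand: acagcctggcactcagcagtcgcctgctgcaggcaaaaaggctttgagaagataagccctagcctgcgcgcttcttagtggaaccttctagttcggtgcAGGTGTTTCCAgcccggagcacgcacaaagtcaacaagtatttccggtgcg

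The base comprises the ATPases of the Psmc genes with the scaffold subunits of Psmd1 and Psmd2 and the ubiquitin receptor of Psmd4. In this group 3 of 9 genes were higher and 6 lower, with a median log2 difference of -0.0070 and 0 past the threshold. The ATPase gene Psmc4 had the smallest p and the lowest level. It read 44.4, 42.2 and 44.8 FPKM in wild type, compared with 42.5, 47.5 and 49.1 FPKM in TonEBP+/-, and its log2 difference was 0.079 (SE 0.0731, 95% interval -0.084 to 0.24). HET 2 and HET 3, the libraries low in thalamus markers, lay above the wild-type libraries and HET 1 within them. With a covariate for thalamus markers the log2 difference of Psmc4 was -0.026, and the cause was not tested. Psmd2, whose product receives ubiquitin shuttle factors, measured 77.9, 77.2 and 80.2 FPKM across wild type, against 73.5, 77.4 and 75.9 FPKM in TonEBP+/- (log2 difference -0.053, SE 0.0621, 95% interval -0.19 to 0.086). HET 1 and HET 3 lay below the wild-type range, and HET 2 was above WT 2. Psmc5, the most abundant ATPase transcript, had 112 ± 3.58 FPKM in wild type and 108 ± 2.53 FPKM in TonEBP+/- (SD, n = 3 each; log2 difference -0.050). Psmd1 was among the least variable genes, at 50.8 to 52.6 FPKM in wild type and 50.2 to 52.0 FPKM in TonEBP+/-. Psmd4 varied more within genotypes, from 60.6 to 72.7 FPKM in wild type and from 57.8 to 69.7 FPKM in TonEBP+/-. The other ATPase genes, Psmc1, Psmc2, Psmc3 and Psmc6, had log2 differences of -0.024, 0.020, 0.036 and -0.0070.

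The lid holds the deubiquitinating subunit of Psmd14, its partner of Psmd7, and a horseshoe of scaffold subunits. Of its 8 genes, 3 were higher and 5 lower, with a median log2 difference of -0.042 and 0 past the threshold. Psmd12, a scaffold gene, gave 45.6, 46.5 and 46.9 FPKM in wild type libraries, against 39.6, 45.2 and 46.0 FPKM in TonEBP+/-. HET 1 was low, HET 2 just under the wild-type range and HET 3 within it, and the log2 difference was -0.090 (SE 0.0736, 95% interval -0.25 to 0.075). Psmd3, another scaffold gene and the least abundant of the lid, read 28.3, 29.7 and 31.2 FPKM in wild type, compared with 27.0, 29.5 and 28.2 FPKM in TonEBP+/- (log2 difference -0.071, SE 0.0706). Psmd6 was the most abundant, with 63.2, 65.1 and 62.1 FPKM across wild type, against 69.6, 61.2 and 69.6 FPKM in TonEBP+/-, and HET 2 lay below HET 1 and HET 3 (log2 difference 0.071, 95% interval -0.090 to 0.23).

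Psmd11, the member in which the genotypes did not overlap, was named for that reason after its values were seen. Its product is a lid scaffold whose abundance is known to influence proteasome assembly. It measured 36.0, 37.3 and 36.9 FPKM across wild type, against 38.1, 37.5 and 39.3 FPKM in TonEBP+/-, so that the lowest TonEBP+/- library exceeded the highest wild-type library by a small margin. The log2 difference of 0.058 (SE 0.0623, 95% interval -0.082 to 0.20) had an unadjusted p of 0.377 and an adjusted p of 1.00 in limma. Psmd14 was at 41.9 ± 4.35 against 40.7 ± 2.36 FPKM and Psmd7 at 34.6 ± 4.57 against 32.6 ± 0.739 FPKM (SD, n = 3 each). For both, WT 1 was the highest library and WT 2 the lowest, which made the wild-type spread wider than that of TonEBP+/-. Psmd8 and Psmd13 had log2 differences of -0.046 and 0.045. Without WT 1, the median log2 difference of the lid genes was 0.018 in place of -0.042.

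Assembly chaperones bind subunits on the way to the complex and are absent from the mature particle. The 7 genes split into 4 higher and 3 lower, with a median log2 difference of 0.013 and 0 past the threshold. Psmg3, which encodes a chaperone of the alpha ring that pairs with the product of Psmg4, gave 8.63, 9.17 and 11.2 FPKM in wild type libraries, against 9.28, 8.58 and 8.41 FPKM in TonEBP+/-. WT 3 was the one library above the rest, and the log2 difference of -0.12 had a 95% interval of -0.35 to 0.10. Its partner Psmg4 lay in the other direction, at 9.31, 13.3 and 10.2 FPKM in wild type and 9.51, 13.7 and 11.9 FPKM in TonEBP+/- (log2 difference 0.089, 95% interval -0.25 to 0.43). A median of about 76 fragments per library was estimated for Psmg3 and of about 60 for Psmg4. At that depth counting error alone gives an SD near 0.15 and 0.17 on the log2 scale, against observed SDs within genotypes of 0.14 and 0.24.

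Psmg1 and Psmg2 encode the other chaperone pair of the alpha ring. Psmg1 read 11.8, 15.8 and 11.7 FPKM in wild type, compared with 13.4, 13.0 and 14.7 FPKM in TonEBP+/- (log2 difference 0.068, 95% interval -0.19 to 0.32). WT 2 lay above all other libraries. Psmg2 had 13.3 ± 1.28 against 13.8 ± 2.56 FPKM (SD, n = 3 each). Among the chaperones of the base, Psmd5 was the most abundant and the most even of all 44 genes. It measured 34.8, 34.2 and 34.1 FPKM across wild type, against 33.8, 33.8 and 34.3 FPKM in TonEBP+/-, so that the highest library exceeded the lowest 1.03-fold. Psmd9 was the least abundant chaperone gene, with 7.84 ± 0.443 against 7.97 ± 1.21 FPKM, and Psmd10, which encodes gankyrin, had 14.5 ± 2.96 against 13.7 ± 2.29 FPKM (SD, n = 3 each).

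Activators cap the core in place of the regulatory particle, and Psmf1 encodes a protein that inhibits the core in vitro. Of these 5 genes, 1 was higher and 4 were lower, with a median log2 difference of -0.036 and 0 past the threshold. Psme1 and Psme2 encode the partners of the interferon-inducible activator ring. Psme1 gave 24.0, 15.6 and 16.7 FPKM in wild type libraries, against 15.3, 16.3 and 19.99 FPKM in TonEBP+/- (log2 difference -0.10, SE 0.163, 95% interval -0.48 to 0.27). WT 1 exceeded every other library, and without it the log2 difference was 0.076. Psme2 read 29.6, 36.3 and 29.5 FPKM in wild type, compared with 30.2, 27.1 and 36.1 FPKM in TonEBP+/- (log2 difference -0.032, 95% interval -0.29 to 0.23). The ratio of Psme1 to Psme2 ran from 0.430 in WT 2 to 0.811 in WT 1, with the TonEBP+/- libraries between 0.506 and 0.601, inside the wild-type range.

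Psme3 encodes the activator of the nucleus. It measured 29.0, 22.3 and 24.4 FPKM across wild type, against 23.7, 23.8 and 24.8 FPKM in TonEBP+/-, with WT 1 again the highest (log2 difference -0.054, 95% interval -0.26 to 0.16, and 0.047 without WT 1). Psme4, which encodes a large single-chain activator, had 8.99 ± 0.365 against 8.77 ± 0.846 FPKM. Psmf1, the least abundant of the tested members, had 5.59 ± 0.524 against 5.73 ± 0.366 FPKM (SD, n = 3 each), a log2 difference of 0.033.

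The median level of the core genes differed between libraries of the same genotype. Deviations were taken from the mean of the 6 libraries on the log2 scale. The median deviation of the 15 tested core genes was -0.036, 0.069 and -0.080 in WT 1 to WT 3, then -0.0046, -0.048 and 0.049 in HET 1 to HET 3. WT 2 and HET 3 were thus high and WT 3 and HET 2 low, 1 of each genotype. In HET 2 the beta genes were low, with a median of -0.068, and the alpha genes near 0, with -0.0093. The beta genes were about as high in HET 1, with a median of 0.022, as in HET 3, with 0.025. Of the 15 core genes, 8 had their highest value in WT 2, 3 in HET 3 and 3 in WT 1, where the median was below 0. The lowest value was in WT 3 for 5 of them and in HET 2 for 6. Of all 13122 genes tested, 2376 were highest in WT 2, 2091 in HET 3 and 2249 in WT 1. Among the same genes, 1776 were lowest in WT 3 and 2498 in HET 2. The share of core genes highest in HET 3 was thus near that of all genes. Base genes moved less, from -0.061 in WT 1 to 0.022 in HET 3, and lid genes from -0.040 in HET 1 to 0.049 in HET 3. Assembly chaperone genes ran from -0.097 in WT 1 to 0.12 in WT 2, and activator and inhibitor genes from -0.14 in WT 2 to 0.12 in HET 3. This pattern was noticed in the data and was not fixed as a comparison.

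Transcript length moved with the same libraries. Over all 597 tested genes with transcripts under 1000 nt (longest coding transcript in GENCODE M21), the median deviation was -0.078, 0.14 and -0.097 in WT 1 to WT 3, then 0.035, -0.066 and 0.070 in HET 1 to HET 3. Over the 8045 genes of 2500 nt or more it was 0.0087, -0.028, 0.019, -0.011, 0.0063 and 0.00066 in the same order. The 7 members under 1000 nt had medians of -0.058, 0.053 and -0.080 in wild type and 0.015, -0.088 and 0.035 in TonEBP+/-. The 10 members of 2500 nt or more had medians between -0.030 and 0.011. Choroid plexus markers, with medians of -0.0022, 0.96, -0.99, 0.50, -1.76 and 1.23, were also high in WT 2 and HET 3 and low in WT 3 and HET 2. The part of transcript length or of choroid plexus in the pattern of the core genes was not tested.

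**Figure D3:**
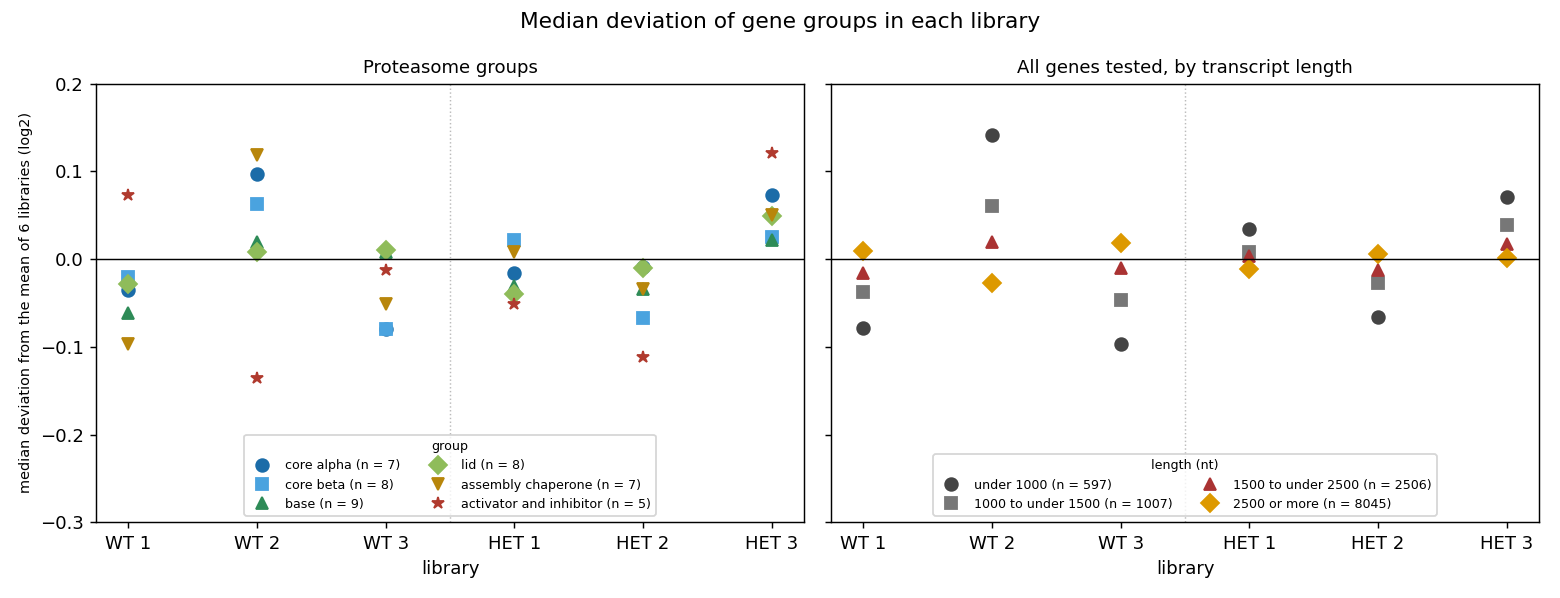
Median deviation from the mean of the 6 libraries (log2, vertical axis) in each library, for the 6 proteasome groups (left) and for all tested genes by transcript length (right). Core genes and short transcripts are both high in WT 2 and HET 3 and below 0 in WT 1, WT 3 and HET 2, where the alpha genes lie near 0 in HET 2, and the dotted line divides wild type from TonEBP+/-.

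Within genotypes, the median SD of the 44 genes was 0.090 on the log2 scale, against 0.12 over all genes tested. For the 20 members with a mean of 60 to 250 FPKM it was 0.083, against 0.092 over the 950 tested genes of that level. For the 14 members of 20 to 60 FPKM it was 0.082, against 0.095 over 2578 genes. For the 10 members of 5 to 20 FPKM it was 0.16, against 0.11 over 5417 genes. These comparisons are matched for level alone, not for transcript length or fragment number.

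Other genes of the ubiquitin-proteasome pathway were taken from lists of known components. Of 23 genes for proteasome-associated proteins (receptors, shuttles, deubiquitinases and assembly factors), 6 were higher and 17 lower, where 50% of all genes tested were higher, with a median log2 difference of -0.038 and 0 past the threshold. Uchl5, which encodes a deubiquitinase docked on the base, gave 19.5, 20.9 and 19.8 FPKM in wild type libraries, against 15.8, 16.6 and 17.4 FPKM in TonEBP+/-. All 3 TonEBP+/- libraries lay below all 3 wild-type libraries. The log2 difference of -0.26 (SE 0.0717, 95% interval -0.42 to -0.10) had an unadjusted p of 0.00481 and an adjusted p of 1.00 in limma and so did not pass. Zfand2a, which encodes a stress-induced proteasome-binding protein, read 18.8, 17.6 and 19.5 FPKM in wild type, compared with 20.7, 20.8 and 20.3 FPKM in TonEBP+/- (log2 difference 0.14, 95% interval -0.020 to 0.29). Besides these, the genotypes did not overlap in Ube3c, a ubiquitin ligase gene, which makes 3 of 23, against 8.52% of all genes tested. The shuttle gene Ubqln1 had a log2 difference of -0.12 (95% interval -0.29 to 0.046).

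Among 12 regulators of proteasome genes, 6 were higher and 6 lower (median -0.0090), and 0 passed. Those with the smallest p were the small Maf genes Mafg (0.17, 95% interval -0.029 to 0.37), Maff (-0.23, 95% interval -0.52 to 0.069) and Mafk (-0.21, 95% interval -0.50 to 0.076), whose products are partners of Nfe2l1. The genotypes did not overlap in 1 of the 12 regulators, Mafg, against 8.52% of all genes tested. Of 18 tested genes for the immunoproteasome, antigen presentation and interferon response, 8 were higher and 10 lower (median -0.021), and 0 passed. Stat2, an interferon signalling gene, led this list by p (0.22, 95% interval -0.036 to 0.48), followed by the class I gene H2-K1 (0.15) and B2m (-0.16).

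**Figure D4:**
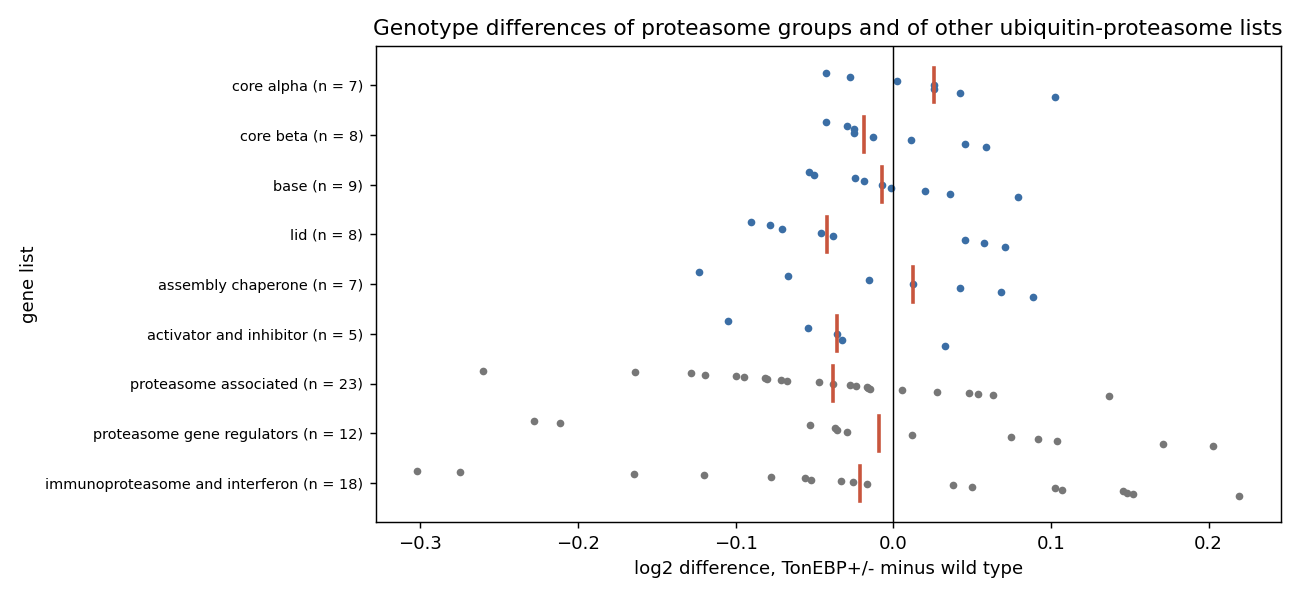
Log2 difference between genotypes (TonEBP+/- minus wild type, horizontal axis) of every tested gene in the 6 proteasome groups (blue) and in 3 other lists of the pathway (grey). Red bars are medians, which lie between -0.042 and 0.026, and the proteasome groups span a narrower range than the other lists.

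The 46 genes lie on 16 chromosomes (GRCm38), with 8 on chromosome 11 and 6 each on chromosomes 2 and 14. Psme1 (55578494 to 55581527) and Psme2 (55587440 to 55591101) are neighbours on chromosome 14, yet their highest libraries differed, WT 1 for Psme1 and WT 2 for Psme2. Exons of 11 members overlap another gene in GENCODE M21, Psmb7 with Nek6 and Psme1 with Emc9 on the opposite strand among them, and for 7 the overlapping gene is listed in the files. GENCODE also names 4 pseudogenes of Psmb5, Psmb6 and Psmb7, of which 0 are listed. Whether reads were counted by strand, and how reads shared with copies were assigned, was not stated in the sources used here, so that the levels of these genes are uncertain to that degree.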

How the data were processed

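The deposited tables, 1 per library, hold values on a log2 scale for 24346 gene symbols. Per the submitters' processing notes the authors aligned reads with TopHat to mm10. No version, annotation, abundance program or unit is stated in the sources used here. From the values, 2 to the power of the value, minus 1, was read as FPKM, since low values lay near whole steps. In each library 78.0% to 80.9% of low values (genes under 3.5 steps, with a single transcript) came within 0.15 of whole steps. The step of each library was chosen to make this share largest, so the share is not an independent check of the unit. The libraries were strand-specific, per the labels' protocols.

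Genotype was fitted as a single term in limma 3.58.1 (R 4.3.3, trended and robust eBayes) for every gene that reached 1 FPKM in 3 or more libraries. This fit draws the variance of each gene toward a trend over all genes tested. The SEs, intervals and p-values of very even genes are thus wider or larger than their own spread would give. Psmd5 had an SD within genotypes of 0.014 (log2) and an SE of 0.061, and Psmd11 had 0.030 and 0.062. P-values were adjusted over these genes by the Benjamini-Hochberg method, and 0.05 was the threshold. On the log2(value + 1) scale, differences of low genes are understated. Fragment numbers of a gene use its longest coding transcript. No library shared values with another.

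The members, gene lists and alternatives were chosen with earlier results of these data known. Named genes are the catalytic genes, the 2 with the smallest p and the highest and lowest level in each group, and up to 3 by p in the other lists. Psmd11 and Ube3c fall outside this rule and were named for genotypes that did not overlap, after their values were seen. Other members are given by value. A further list of pathway genes is not reported here. Marker lists for meninges, microglia, oligodendrocytes, astrocytes and endothelium had median log2 differences of 0.24, 0.093, -0.051, 0.019 and -0.019. The median was -0.44 for thalamus, 0.071 for choroid plexus and 0.0034 for hippocampal neurons. Of the 76 marker genes tested, 0 passed the threshold in limma. An unadjusted p under 0.05 was found for 5 of the 76, against 3.69% of all genes tested. They were 2 thalamus, 2 hippocampal neuron and 1 microglia markers. Plots used matplotlib 3.10.9 (Python 3.11.15).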

Additional observations from a re-analysis of the deposited data

How the results depend on the processing

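The count of proteasome genes past the threshold was 0 under all alternatives, which were a replicate block, a pseudocount of 0.1, median scaling, quantile normalization, a mean of at least 5 FPKM, no filter, no robust option, a covariate for thalamus markers, an adjusted p of 0.1 and each library left out in turn. The smallest adjusted p of any member was 0.888. Members higher in TonEBP+/- numbered 16 to 21 without leaving out a library and 15 to 25 with 1 left out (25 without WT 2 or HET 2), and the median log2 difference of all members was -0.0287 to 0.0135. The number of all genes past the threshold ranged from 0 to 8 with 1 library left out (8 without HET 1), and the lid median from -0.0561 to 0.0181.

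Some differences changed sign, among them those of Psmc4 and Psme1, which are not the closest to 0. With the thalamus covariate Psma2 was at -0.0371, Psmb2 at 0.0105, Psmb5 at 0.0158, Psmb7 at -0.00502, Psmc4 at -0.0259 and Psmd9 at -0.140. With median scaling Psma2 was at -0.0110, Psmb7 at -0.00260 and Psmd9 at -0.000911, and with quantile normalization Psmd9 was at -0.00204. With 1 library left out the ranges were -0.0437 to 0.0660 for Psma2, -0.0389 to 0.0857 for Psma5, -0.0824 to 0.00907 for Psma7, -0.0637 to 0.0335 for Psmb10, -0.0956 to 0.0119 for Psmb2, -0.0642 to 0.00422 for Psmb5, -0.0681 to 0.00700 for Psmb6, -0.0444 to 0.0859 for Psmb7, -0.0852 to 0.110 for Psmd9, -0.219 to 0.0764 for Psme1, -0.141 to 0.0631 for Psme2, -0.135 to 0.0472 for Psme3 and -0.0350 to 0.0736 for Psmf1. The causes were not tested.

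Replicate numbers are shared between genotypes. Deviations of same-numbered libraries correlated at -0.208, -0.247 and -0.157 over 13122 genes, and those of differently numbered libraries at 0.0493 to 0.169. Same-numbered libraries were thus not more alike. The deviations of the 3 libraries of a genotype sum to 0 and hold tissue differences too, so these values cannot decide whether the numbers mark a pairing. With the replicate block 0 genes passed, as without it. Both genotypes hold every replicate number, so the block cannot change a log2 difference. The count of 19 members higher was therefore fixed in advance. Counting error, which depth limits, had an SD of 0.15 (log2) for Psmg3, whose spread within genotypes was 0.14, but the spread exceeded it for Psmd10 (0.25 against 0.098) and Psmg2 (0.21 against 0.10).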
